A study of Mus musculus with 24 samples.

Results

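The cytosolic ribosomal protein genes were the 80 protein-coding genes, of 54532 genes in the count table of mouse liver, whose symbol was Rpl or Rps followed by a number (with a letter a, x, l or y after it in some), Rpsa, Rplp0, Rplp1 or Rplp2. Of these, 46 code for proteins of the large ribosomal subunit (Rpl), 31 for proteins of the small subunit (Rps and Rpsa) and 3 for the proteins of the stalk of the large subunit (Rplp0, Rplp1 and Rplp2). The symbols alone chose the genes, and no measured value was used. Rpl6l, Rps4l and Rpl32l have such a symbol but another biotype in the table, and were left out.

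Each library came from the liver of 1 male mouse after a fast of 24 h, a young adult by the study's methods, and each of 6 groups had 4 livers. All groups were on the C57BL/6J background. Rab30KO mice lacked 1 exon of Rab30, a Golgi Rab GTPase, in the whole body, and Rab30 Ctrl were their wild-type littermates. Rab30L-/- mice lost the same floxed exon through Cre driven by the albumin promoter, which is active in hepatocytes. Cpt2L-/- mice lost Cpt2, the mitochondrial enzyme needed to oxidize long-chain fatty acids, through the same Cre, and DKO mice lost both genes. The controls named ff;ff were littermates of DKO and carried both floxed genes without Cre, and the labels name no littermates of Rab30L-/- or Cpt2L-/-. The other liver cells of the L-/- and DKO mice keep their floxed genes. Levels are in CPM, counts scaled to library totals that were adjusted by 1 TMM normalization factor per library. A set of 12 hepatocyte markers, none of them at 0 in any group, summed to between 59007 and 154473 CPM.

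A ribosome is built from ribosomal RNAs and ribosomal proteins, which are made in the cytosol, imported into the nucleolus and assembled there on the RNA. Many ribosomal protein mRNAs begin with a C followed by a run of pyrimidines, the terminal oligopyrimidine (TOP) motif, through which the nutrient-sensing kinase mTORC1 controls their translation. Their short, abundant and spliced mRNAs have been copied back into mammalian genomes many times, so that most of the genes have processed pseudogenes of nearly the same sequence, to which a short read can also map.

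Library totals ranged from 11801027 to 24497738 counts. The ribosomal protein genes held from 0.842% of the counts of a library in the lowest Rab30KO library to 1.769% in the highest Cpt2L-/- library. Replicate 3 of Rab30L-/- with 24497738 counts and replicate 2 of Rab30 Ctrl with 20401129 stood apart from their groups, and had the most genes with a count (21063 and 20958). Counts of the targeted genes followed the labels in part. Rab30 was at 11.2 ± 5.04 CPM in the libraries labelled Rab30KO and 14.1 ± 10.8 in Rab30 Ctrl, at 17.1 ± 7.35 in Rab30L-/- and 36.5 ± 9.54 in ff;ff, and at 161 ± 57.8 in DKO and 147 ± 30 in Cpt2L-/- (SD, n = 4). Rab30 was thus lower on average in Rab30L-/- than in ff;ff, with overlap, and not lower in DKO than in Cpt2L-/-. Cpt2 was at 127 ± 30.2 CPM in the libraries labelled Cpt2L-/-, 105 ± 10.9 in DKO, 132 ± 5.13 in ff;ff, 219 ± 40.3 in Rab30L-/-, 186 ± 20.2 in Rab30 Ctrl and 149 ± 41.2 in Rab30KO (SD, n = 4). All DKO libraries lay below all ff;ff libraries for Cpt2, while Cpt2L-/- overlapped with ff;ff. Counts over a whole gene include the exons outside the deleted part, so they check little, and each group below is the group named by the label.

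The sequences that separate a ribosomal protein gene from its copy are few, as 3 pairs show that recur in the results. Over the 351 coding bases of Rpl34 (chr3:130726831-130730398, minus strand, GRCm38, ENSMUSG00000062006), the processed pseudogene Rpl34-ps1 (chr6:71124610-71124963, plus strand) differed at 2 bases, T132C and C318G, where positions count from 1 at the A of the start codon of the ribosomal protein gene. Over the 435 coding bases of Rpl26 (chr11:68901583-68906989, plus strand), Gm15772 (chr5:3236431-3236868, plus strand) differed at 2 bases, C177T and T288C. Over the 345 coding bases of Rpl30 (chr15:34440505-34443640, minus strand), Gm12191 (chr11:49678710-49679057, minus strand) differed at 1 base, G96A. The stretches around 1 difference of each pair, from GENCODE M21 transcripts on GRCm38, are shown with the differing base in capitals, because only reads that cover such a base within the coding sequence can tell a pair apart.
Rpl34: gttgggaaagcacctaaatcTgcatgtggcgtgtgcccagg
Rpl34-ps1: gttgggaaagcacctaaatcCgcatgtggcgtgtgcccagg
Rpl26: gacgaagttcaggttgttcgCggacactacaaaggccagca
Gm15772: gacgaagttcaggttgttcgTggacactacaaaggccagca
Rpl30: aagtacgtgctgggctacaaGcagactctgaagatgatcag
Gm12191: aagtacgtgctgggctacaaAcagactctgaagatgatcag

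The pyrimidine run at the start of the transcript was read from RefSeq promoters on GRCm38.p6 for the 60 members with an entry. A run of at least 5 bases that starts with a C and goes on with C or T, on the strand of the gene and within 10 bases of the annotated start, was in 38 of the 60 (63.3%) against 34.4% of 27025 genes. Runs of at least 8 bases were in 38.3% of the members and 9.43% of all genes. The 24 bases around the run are shown in transcript direction for 4 genes with such a run whose levels are described below and for Rps6, the substrate of S6 kinase, with the run in capitals. They are at chr2:32961708-32961731 (Rpl12), chr10:23787184-23787207 (Rps12, minus strand), chr7:4792957-4792980 (Rpl28), chr7:118116130-118116153 (Rps15a, minus strand) and chr4:86857351-86857374 (Rps6, minus strand).
Rpl12: atccgtCTTTTCggctttcggctc
Rps12: cgccggCCTTTTCCCCTgccgccg
Rpl28: tcgtgtCTCTCTTTCCgtctccgg
Rps15a: tgccatCTTCCCTCgccggtgagt
Rps6: gtcgggCCTCTTTTTCgtgacgcc
Of other genes described below, Rpl10a had a run of 7 bases in this window, while the longest was 3 bases in Rplp0 and Rpl4 and 2 in Rpsa. In Rpl4 the window cuts the run, as the bases just before it (cctttt) are also pyrimidines. A match describes these letters only, and no binding or translation was measured here.

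Per length, as FPKM averaged over the 24 libraries, the highest levels were those of Rplp1 (495), a protein of the acidic stalk that recruits elongation factors, of Rpl4 (295), which lines the exit tunnel, and of Rplp0 (245), the protein that anchors the stalk. The lowest levels among genes with enough counts to be tested were 1.17 FPKM for Rps10, 1.5 for Rpl24, 2.86 for Rpl21 and 3.68 for Rpl13a, and near copies at other loci, defined next, held 94.7%, 62.3%, 71.8% and 15.4% of the combined reads of these 4 genes. Rps10, Rpl24 and Rpl13a also overlap on the same strand with RPS10-NUDT3, Gm28037 and Gm45713, which were at 0 CPM in every library. With near copies Rpl24 was still at 2.38 to 7.69 CPM. In all, 33 members overlap some gene on the same strand. Whether reads in such overlaps were left out of the counts was not tested, so these values may not be expression levels. The tissue-restricted paralogs were close to 0. Rpl3l, the striated-muscle form of Rpl3, had 63 counts in all, Rpl39l had 2 counts, and Rpl10l, the testis form of Rpl10, had 0, which allows up to 3 counts. These 3 genes did not pass the filter on low counts, and the other 77 were tested in every comparison.

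Near copies were counted for each member as genes at another locus that share at least 50 stretches of 25 bases with it and at least 50% of their own. There were 378 such copies, 360 of them pseudogenes, and 70 of the 80 members had at least 1. They held 10.2% of the reads of members and copies together. For 28 members the copies held at least 10% of the combined reads, and for 7 they held more than 50%. Pseudogenes named after the gene held at least 10% for 12 members, namely Rpl3, Rpl7a, Rpl9, Rpl14, Rpl17, Rpl21, Rpl23a, Rpl34, Rpl38, Rps10, Rps12 and Rps16. Rps10, a small-subunit protein, had the highest such share, 94.7%. It had 1013 counts in all libraries against 16985 on Rps10-ps2. The coding sequences of Rpl12, Rpl38, Rps16, Rps27 and Rps28 were identical to that of their largest copy over their whole length, and those of Rps12 and Rps12-ps3 over 384 bases, so within these bases no read can tell them apart.

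How reads that map to more than 1 place were counted is not given in the sources used here, so the share of a member against its copy is a share of assigned reads and may not be that of the transcripts. In 9 of 28 pairs of a member and its largest copy, the share of the member spanned more than 50 percentage points over the 24 libraries. The share of Rpl34 ran from 0.910% to 98.4%, and its level spanned 116-fold against 1.85-fold for Rpl34 and its near copies summed. For Rpl26, a protein near the exit tunnel, the level spanned 515-fold alone and 2.03-fold when summed. For Rpl30 the spans were 43.0-fold and 3.38-fold, and for Rpl29 321-fold and 8.35-fold.

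Rpl34 differed between groups in this share. The share was 0.910% to 3.59% in ff;ff, 1.40% to 2.94% in DKO, 46.1% to 49.9% in Rab30L-/- and 95.7% to 98.1% in Cpt2L-/-. In Rab30 Ctrl it was 45.9% to 98.4%, and in Rab30KO 3.30% to 94.7%. What sets the share in a library was not tested. Rpl34 was at 1.48, 3.78, 2.44 and 3.49 CPM in the 4 ff;ff libraries and at 1.74, 3.87, 3.57 and 3.19 in DKO. It was at 63.4, 51.2, 61.2 and 65.0 CPM in Rab30L-/- and at 104, 103, 172 and 132 in Cpt2L-/-. In Rab30 Ctrl the values were 119.7, 143, 106 and 46.3 CPM, and in Rab30KO 49.9, 93.9, 3.32 and 113. The ff;ff and DKO libraries were thus low, without overlap with Rab30L-/-, Cpt2L-/- or Rab30 Ctrl, and 1 Rab30KO library was as low as they were. Rpl34-ps1 took the opposite order, with 101 to 162 CPM in ff;ff, 123 to 162 in DKO, 59.8 to 70.0 in Rab30L-/- and 3.36 to 5.05 in Cpt2L-/-. The sum of the pair averaged 133 ± 27.1 CPM in ff;ff, 139 ± 17.7 in DKO, 125 ± 9.90 in Rab30L-/- and 132 ± 32.1 in Cpt2L-/- (SD, n = 4), and overlapped between all of them.

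**Figure D1:**
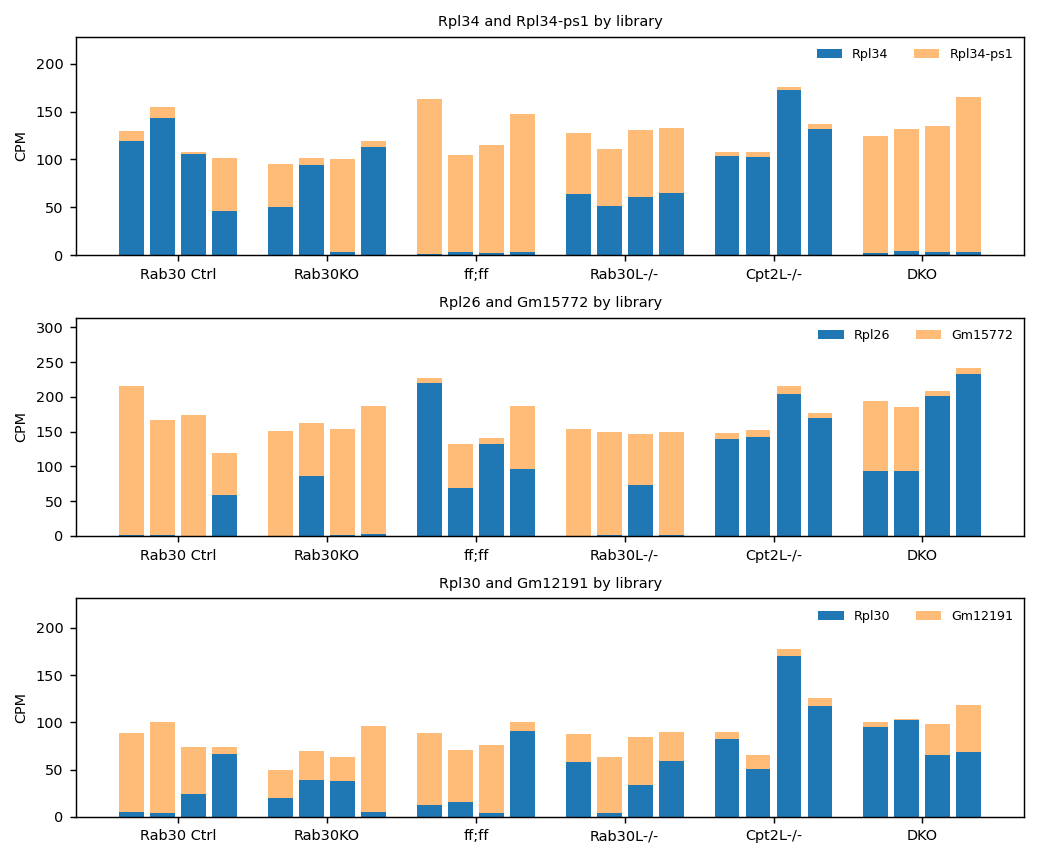
Level in CPM (y axis) of Rpl34, Rpl26 and Rpl30 (blue) and of their largest copy (orange), stacked, in each of the 24 libraries (x axis, ordered by group). The blue part of Rpl34 was at most 3.87 CPM in all ff;ff and DKO libraries and at least 103 CPM in all Cpt2L-/- libraries, while the stacked height ranged from 94.8 to 175 CPM.

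In Rpl26 and Rpl30 the split varied between the libraries of a group. Rpl26 was at 0.811, 1.23, 0.568 and 58.3 CPM in Rab30 Ctrl, at 0.658, 86.8, 1.23 and 2.26 in Rab30KO and at 0.453, 0.989, 73.8 and 1.97 in Rab30L-/-. It was at 220.1, 68.7, 133 and 96.5 CPM in ff;ff, at 139, 143, 204 and 169 in Cpt2L-/- and at 93.3, 94.1, 201 and 233 in DKO. Each of Rab30 Ctrl, Rab30KO and Rab30L-/- had 1 library over 50 CPM and 3 libraries under 3 CPM, and no library of the other 3 groups was under 68.7 CPM. Rpl26 and its near copies together were at 120.0 to 243 CPM in all 24 libraries. Rpl30, a protein at the interface of the subunits, was between 3.95 and 4.75 CPM in 5 libraries, from Rab30 Ctrl (2), Rab30KO (1), ff;ff (1) and Rab30L-/- (1), and reached 170.1 CPM in Cpt2L-/-. Rpl29 was at 0.329 and 0.577 CPM in replicates 1 and 3 of Rab30KO and at 0.579 and 0.677 in replicates 1 and 4 of Rab30 Ctrl, against 37.3 to 106 CPM in the other 20 libraries.

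The summed level of all 80 genes, in CPM scaled by TMM, was 10937 ± 1747 in Rab30 Ctrl, 9191 ± 1037 in Rab30KO, 11124 ± 1077 in ff;ff, 11269 ± 1136 in Rab30L-/-, 13688 ± 2199 in Cpt2L-/- and 12060.2 ± 1979.6 in DKO (SD, n = 4). The sum in Cpt2L-/- was 1.23 times that in ff;ff, with libraries from 11708 to 16322 against 9822 to 12426, so that the groups overlapped. By library totals without TMM the ratio was 1.48, and all Cpt2L-/- libraries then lay above all ff;ff libraries. The TMM factors were 1.084 to 1.154 in Cpt2L-/- and 0.866 to 0.986 in ff;ff. Rab30KO was at 0.840 times Rab30 Ctrl, also with overlap, 8172 to 10138 against 9655 to 13441. In whole liver, fewer cells of a type and less RNA per cell cannot be told apart in any of these levels.

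**Figure D2:**
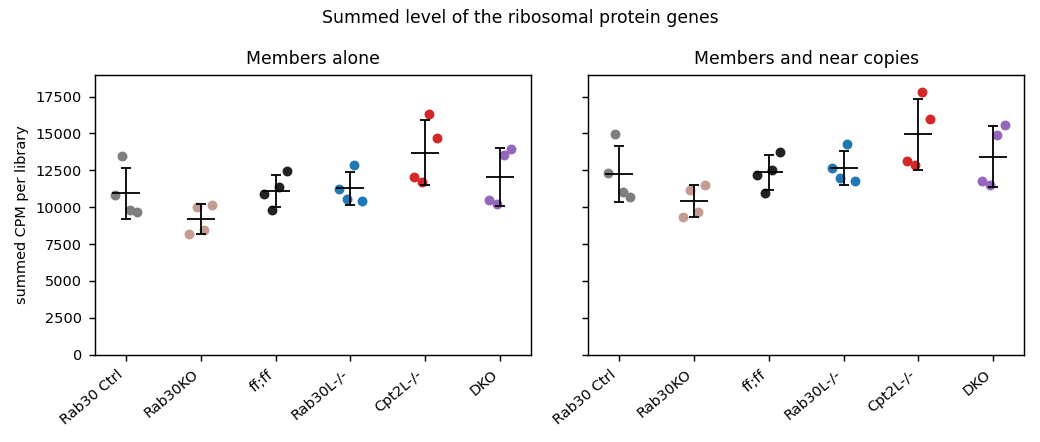
Summed CPM of the ribosomal protein genes alone (left) and with their near copies (right) on the y axis, for the 6 groups on the x axis. Points are libraries, and the bar with caps is the mean ± SD (n = 4). The Cpt2L-/- libraries reach highest, 16322 alone and 17801 with near copies, and overlap with ff;ff.

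A gene was called changed with a Benjamini-Hochberg adjusted p under 0.05 over all genes tested, from the quasi-likelihood test of edgeR, and a change of at least 1.2-fold. All changes are given as log2 fold changes with their standard error (SE). The labels do not say more of the replicates than the animal each came from, and the p-values measure the spread between these livers. The comparisons with ff;ff share its 4 libraries, as those with DKO share the DKO libraries, and each is given on its own.

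Cpt2L-/- against ff;ff asked what the loss of hepatic fatty acid oxidation changed in the fasted liver. Of 77 genes tested, 7 were called higher and 0 lower, where 11.9% of 13270 genes were called higher and 11.9% lower. With an unadjusted p under 0.05, 16 were higher and 0 lower (all genes 17.9% and 17.8%), DESeq2 called 11 higher and 0 lower (all genes 13.1% and 14%), and limma-voom 15 higher and 0 lower (16.5% and 15.3%). The log2 fold changes lay mostly on one side, with 69 above 0 and 8 below, where 49.7% of all genes were above 0. Their median was 0.25 (a fold of 1.19) against 0.00 over all genes, 0.28 for the large subunit, 0.25 for the small subunit and 0.11 for the stalk. The medians ranged from 0.15 to 0.33 when each library was left out in turn, the lowest without replicate 3 of Cpt2L-/-. In 11 genes the Cpt2L-/- libraries lay above all ff;ff libraries, beside 14.2% of all genes.

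Among the 7, Rpl12 (chr2:32961559-32965345, ENSMUSG00000038900), a protein at the base of the stalk, was at 172, 168, 219 and 225 CPM in Cpt2L-/- and at 121, 92.6, 109 and 103 in ff;ff. The groups did not overlap, and the gene rose by 0.87 (SE 0.15, edgeR adjusted p = 9.8e-04). Rpl10a (chr17:28328471-28331033, ENSMUSG00000037805), which forms the mobile stalk near the site where spent tRNAs leave, was at 237, 224, 292 and 281 CPM against 132, 139.7, 173 and 174. All 4 Cpt2L-/- libraries were higher, and the gene rose by 0.73 (SE 0.15, edgeR adjusted p = 0.00321). Rpl3 (chr15:80077791-80091868, ENSMUSG00000060036), a protein close to the peptidyl transferase centre, was at 306, 362, 375 and 337 CPM against 191, 195, 261 and 146. It rose by 0.78 without overlap (SE 0.18, edgeR adjusted p = 0.00565). These 3 calls were kept in all 8 fits that left out 1 library and with near copies summed.

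Rpl23a, at the mouth of the exit tunnel (chr11:78180932-78183584), rose by 0.43 (SE 0.15, edgeR adjusted p = 0.0479), which held in 1 of 8 fits without 1 library and not with near copies summed (adjusted p = 0.0599). The call was also lost with named pseudogenes summed, DESeq2 size factors, a looser or a stricter filter on low counts, or 1 fit of all 24 libraries (adjusted p up to 0.168). Rpl34 rose by 5.47 (SE 0.28, edgeR adjusted p = 2.1e-07), but Rpl34 with its near copies gave -0.03 (SE 0.19, adjusted p = 0.927). Rpl21 (chr5:146832890-146837032, ENSMUSG00000041453), a large-subunit protein with 35 near copies, was at 10, 19.3, 50.5 and 13.3 CPM against 0.873, 1.65, 2.02 and 0.698. It rose by 4.10 (SE 0.60, edgeR adjusted p = 0.00120), and with its near copies by 2.16 (SE 0.21, adjusted p = 1.6e-05), from 12.2 to 17.9 CPM in ff;ff to 52.6 to 100.3. BC004004 on chromosome 17, which shares 372 stretches of 25 bases with Rpl21 and was not in that sum, was at 67.3 to 103 CPM in Cpt2L-/- and 46.4 to 60.1 in ff;ff. It was at 68.3 to 95.2 CPM in DKO, 43.2 to 61.5 in Rab30L-/- and 44.0 to 57.3 in Rab30 Ctrl. The sums of Rpl21 and its near copies in all comparisons below also leave it out, so they may not hold all reads of Rpl21.

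The other members with known special roles did not pass in Cpt2L-/- against ff;ff. Rpsa, the laminin receptor precursor of the small subunit, was at 482, 487, 578 and 545 CPM against 395, 327, 398 and 438. Its groups did not overlap, and its change of 0.41 (SE 0.14) had an adjusted p of 0.0546 in edgeR, or 0.0496 with near copies summed. Rps19, the gene most often mutated in Diamond-Blackfan anaemia, gave 0.45 (SE 0.16, edgeR adjusted p = 0.0571). Rps6 gave 0.11 (SE 0.15), Rpl5 and Rpl11, which with the 5S RNA bind Mdm2, gave 0.25 (SE 0.15) and 0.19 (SE 0.18), and Rps27a, made as a fusion with ubiquitin, gave 0.68 (SE 0.52), with edgeR adjusted p of 0.626, 0.266, 0.479 and 0.401 in that order. Rps27 and its paralog Rps27l gave -0.02 (SE 0.22) and -0.29 (SE 0.22). Of the stalk, Rplp0 gave 0.10 (SE 0.14), Rplp1 0.11 (SE 0.19) and Rplp2 0.35 (SE 0.19), and none was called. The hepatocyte markers summed to 59007 to 71756 CPM in Cpt2L-/- and 120239 to 154095 in ff;ff, and the median log2 fold change of the 129 other short protein-coding genes tested, under 1000 bases and over 10 CPM, was -0.15. The part of either in the result was not tested.

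**Figure D3:**
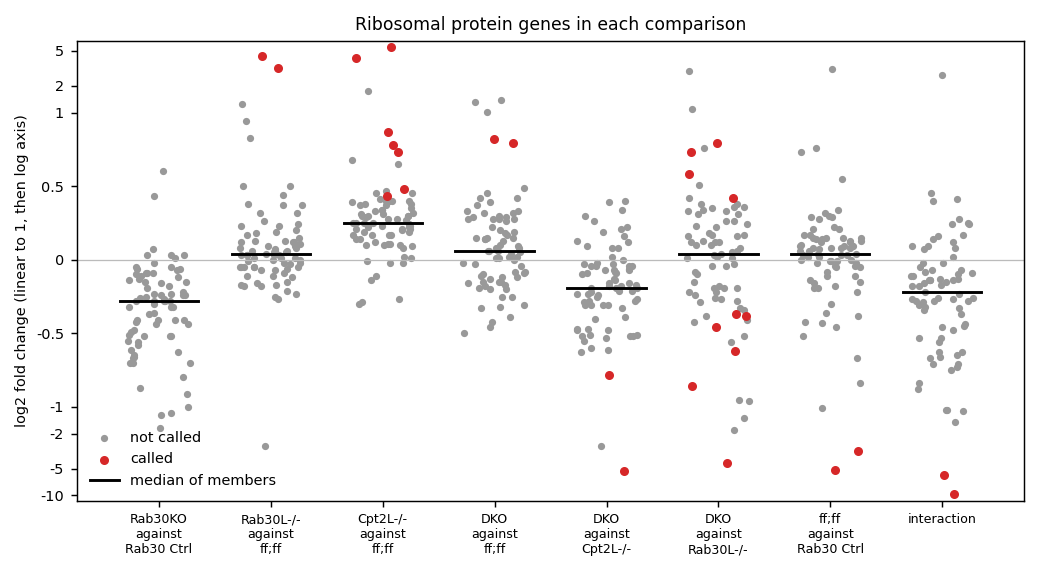
Log2 fold change (y axis, linear to 1 and logarithmic beyond) of each of the 77 tested ribosomal protein genes in the 7 comparisons and the interaction (x axis). Each point is a gene and called genes are marked. Most points of Cpt2L-/- against ff;ff are above 0 and most of Rab30KO against Rab30 Ctrl below, with medians of 0.25 and -0.28, and Rpl34 and Rpl21 lie far from the rest where they are called.

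In DKO against ff;ff, 2 genes were called higher and 0 lower, beside 7.87% and 8.24% of 13389 genes. At an unadjusted p under 0.05, 7 were higher and 1 lower (all genes 14.1% and 15.6%), DESeq2 called 3 higher and 0 lower (9.92% and 10.6%), and limma-voom 3 in each direction (13.7% and 14.2%). The median was 0.06, beside -0.27 for the other short genes, and 47 genes were above 0 (48.2% of all genes). Rpl12 was at 157, 142, 228 and 227 CPM in DKO, all above the highest ff;ff library at 121, and rose by 0.82 (SE 0.18, edgeR adjusted p = 0.00844). Rps12 (chr10:23785183-23787275, ENSMUSG00000061983), a protein of the beak of the small subunit, was at 71.7, 64.0, 98.6 and 111 CPM in DKO and at 57.4, 43.3, 42.9 and 55.6 in ff;ff. It rose by 0.79 (SE 0.19, edgeR adjusted p = 0.0148), a call lost without replicate 2 of ff;ff, and by 0.92 (SE 0.19) with near copies summed. Both calls stood with near copies summed. The count of calls, in both directions together, rose to 6 without replicate 1 of ff;ff. Among members called in only 1 fit without 1 library, Rpl28, Rpl36 and Rpl41 were lower, and Rpl30, Rpl39 and Rps27a were higher.

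DKO against Cpt2L-/- asked what the loss of Rab30 added in livers without Cpt2. Here 0 genes were called higher and 2 lower, beside 1.38% and 1.33% of 13306 genes, and 61 of 77 log2 fold changes were below 0 with a median of -0.19 (all genes 0.00, with 50.5% below). With an unadjusted p under 0.05, 2 were higher and 17 lower (all genes 10.8% and 10.9%). DESeq2 called 0 higher and 9 lower (4% and 3.76%), and limma-voom 0 higher and 17 lower (5.49% and 6.03%). Of the 129 other short genes 78 were below 0, with a median of -0.12, and their part in the result was not tested. Rpl28, a large-subunit protein (chr7:4792874-4795066, ENSMUSG00000030432), was at 98.1, 98.9, 129.9 and 133 CPM in DKO and at 182, 167, 231 and 214 in Cpt2L-/-. The groups did not overlap, and the gene fell by 0.78 (SE 0.14, edgeR adjusted p = 0.0216), a call lost without replicate 4 of Cpt2L-/- or replicate 1 or 2 of DKO, and in 1 fit of all 24 libraries (adjusted p = 0.149). In ff;ff Rpl28 was at 72.2, 146, 161 and 189 CPM, a range that covers all DKO libraries. Rpl34 fell by 5.35 (SE 0.25, edgeR adjusted p = 7.8e-07), and with its near copies gave 0.08 (SE 0.16, adjusted p = 0.808). Rpl21 gave -2.79 (SE 0.77, edgeR adjusted p = 0.103), but with its near copies it fell by 1.75 (SE 0.21, adjusted p = 0.00204), from 52.6 to 100.3 CPM in Cpt2L-/- to 15.9 to 24.3 in DKO. That sum leaves out BC004004, which was at 67.3 to 103 CPM in Cpt2L-/- and 68.3 to 95.2 in DKO.

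DKO against Rab30L-/- showed genes in both directions, 4 higher and 6 lower, beside 14.9% and 15.8% of 13292 genes. With an unadjusted p under 0.05, 13 were higher and 10 lower (all genes 20.5% and 21.2%). DESeq2 called 8 higher and 9 lower (16.3% and 17.2%), and limma-voom 6 and 11 (18.1% and 18.7%). The median was 0.04, beside -0.35 for the other short genes. Rps12 rose by 0.79 (SE 0.22, edgeR adjusted p = 0.0190), from 36.9 to 68.4 CPM to 64.0 to 111, with overlap and in 4 of 8 fits without 1 library. Rpl12 rose by 0.73 (SE 0.16, adjusted p = 0.00652), with all DKO libraries above the 104 to 126 CPM of Rab30L-/-. Rps15a, a small-subunit protein (chr7:118104372-118116188), was at 94.9, 89.1, 119 and 132 CPM in DKO and at 76.9, 72.3, 65.2 and 76.2 in Rab30L-/-. It rose by 0.58 without overlap (SE 0.14, edgeR adjusted p = 0.00998), in all 8 fits without 1 library. Rps4x, the X-linked gene of the small subunit (chrX:102184941-102189394), rose by 0.42 (SE 0.14, edgeR adjusted p = 0.0371), in 2 of 8 such fits.

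The 6 lower genes were Rpl34, Rpl41, Rpl36, Rpl11, Rpl28 and Rps16. Rpl11, of the 5S ribonucleoprotein (chr4:136028265-136053428), was at 114, 104, 142 and 147 CPM in DKO and at 175, 158, 209 and 159 in Rab30L-/-, without overlap. It fell by 0.46 (SE 0.15, edgeR adjusted p = 0.0309), a call kept in 4 of 8 fits without 1 library. Rpl41, the smallest protein of the ribosome, was at 65.4, 51.5, 92.8 and 73.1 CPM against 131, 75.3, 198 and 112, and fell by 0.86 with overlap (SE 0.27, edgeR adjusted p = 0.0387). Rpl36 fell by 0.62 (SE 0.20), Rpl28 by 0.38 (SE 0.13) and Rps16 by 0.37 (SE 0.13), each kept in 1 to 3 of 8 such fits. In 1 fit of all 24 libraries, Rps4x and, of the lower genes, Rpl11, Rpl41, Rpl36, Rpl28 and Rps16 were not called. Rps4x was also lost with limma-voom or upper-quartile scaling, Rpl28, Rpl41 and Rps16 with a looser filter on low counts, Rpl28 with DESeq2 size factors, Rps16 with named pseudogenes summed, and Rpl28 and Rps16 with near copies summed. Without replicate 3 of Rab30L-/-, the deepest library, or without replicate 1 of DKO, 5 genes were called higher and 1 lower, and without replicate 1 of Rab30L-/- 3 and 1. With near copies summed there were 5 higher and 7 lower (15% and 15.9% of all genes). Rpl26 was then called higher, by 0.47 (SE 0.12, adjusted p = 0.0116), where alone it gave 2.99 (SE 1.54, adjusted p = 0.194), and Rpl34 no longer lower, at 0.14 (SE 0.12).

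**Figure D4:**
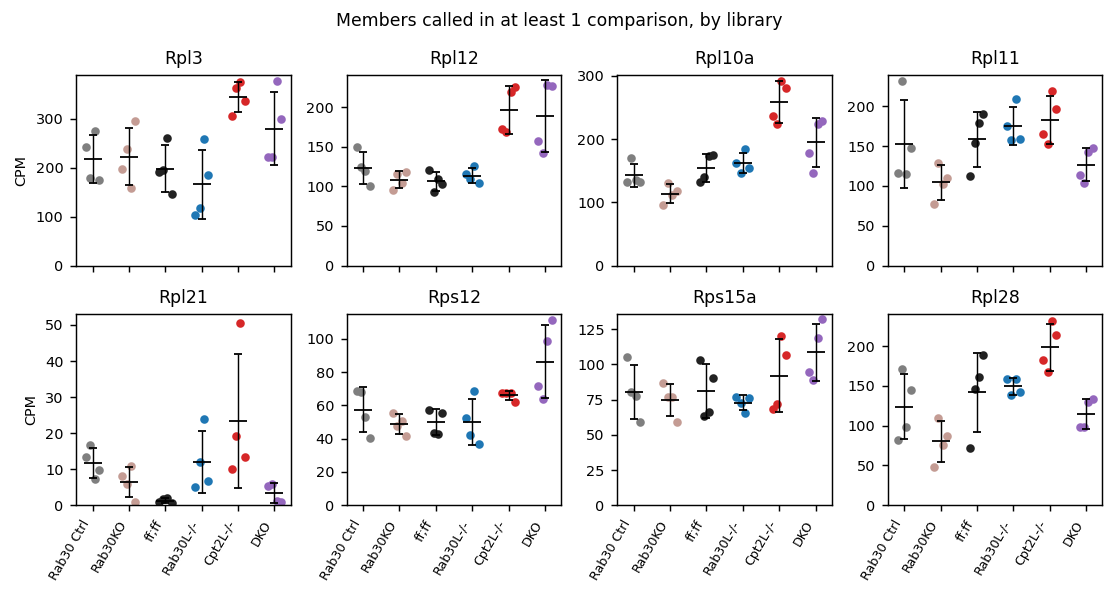
Level in CPM (y axis, from 0) of called ribosomal protein genes in the 24 libraries, by group (x axis). Points are libraries and the bar is the mean ± SD (n = 4). Rpl12 is at 142 CPM or more in every Cpt2L-/- and DKO library and at 149 or less in the others, and Rpl28 is lower in DKO than in Cpt2L-/- without overlap.

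The loss of Rab30 alone was read in 2 comparisons. In Rab30L-/- against ff;ff, 2 genes were called higher and 0 lower, beside 0.299% and 0.180% of 13367 genes, and at an unadjusted p under 0.05 there were also 2 higher and 0 lower (all genes 6.39% and 4.81%). DESeq2 called 2 and 0 (1.32% and 0.914%), and limma-voom 1 and 0 (0.973% and 0.793%). The median was 0.04, beside 0.11 for the other short genes, and 47 of 77 were above 0 (50.4% of all genes). Rpl34 rose by 4.39 (SE 0.25, edgeR adjusted p = 7.7e-06), and with near copies gave -0.09 (SE 0.16, adjusted p = 0.878). Rpl21 was at 5.20, 12.1, 24.0 and 6.6 CPM in Rab30L-/-, above all ff;ff libraries, and rose by 3.16 (SE 0.53, edgeR adjusted p = 0.0352), a call lost without replicate 2 of Rab30L-/- or any 1 library of ff;ff, and with limma-voom, a looser or a stricter filter on low counts, or 1 fit of all 24 libraries (adjusted p up to 0.112). With near copies it rose by 1.42 (SE 0.22, adjusted p = 0.0207), from 12.2 to 17.9 CPM to 30.1 to 58.7, a call lost without replicate 2 of Rab30L-/- or replicate 1 or 2 of ff;ff.

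In Rab30KO against Rab30 Ctrl, edgeR called 0 genes in either direction, beside 0.0220% of 13656 genes called higher and 0 called lower. DESeq2 and limma-voom also called 0 members, beside 0.0440% and 0.0293% of all genes with DESeq2 and 0.0220% and 0 with limma-voom. Of the log2 fold changes, 70 of 77 were below 0 (50.7% of all genes) with a median of -0.28 (a fold of 1.21 lower) against 0.00 over all genes, -0.32 for the large subunit, -0.27 for the small and -0.44 for the stalk. With an unadjusted p under 0.05, 0 were higher and 14 lower, beside 0.886% and 1.33% of all genes, and in 6 genes all Rab30KO libraries lay below all Rab30 Ctrl libraries (0.652% of all genes). Without replicate 2 of Rab30 Ctrl the median was -0.16. The genes farthest from the median were Rps28, at -1.75 (SE 0.72), Rpl38, at -1.24 (SE 0.56), and Rpl26, at 0.60 (SE 2.08), each with an adjusted p of 1.0 in edgeR. Rps28 was at 9.96, 83.6, 21.0 and 12.3 CPM in Rab30 Ctrl and at 5.51, 12.7, 9.23 and 10.2 in Rab30KO, and Rpl38 at 18.7, 98.0, 26.1 and 18.1 against 17.1, 20.8, 15.3 and 14.9. The groups overlapped in both, and replicate 2 of Rab30 Ctrl held the high value each time. The median of the other short genes in this comparison was -0.20, and its part in the result was not tested.

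The groups without a deleted gene were also set against each other. In ff;ff against Rab30 Ctrl, 0 genes were called higher and 2 lower, beside 0.213% and 0.736% of 13587 genes. Unadjusted p-values were under 0.05 for 1 higher and 2 lower genes (all genes 5.09% and 8.15%), DESeq2 called 1 higher and 2 lower (1.34% and 2.82%), and limma-voom 0 and 2 (0.655% and 1.71%). The 2 were again Rpl34, which fell by 5.16 (SE 0.39, edgeR adjusted p = 1.4e-04), and Rpl21, which fell by 3.13 (SE 0.38, edgeR adjusted p = 0.00387). With near copies Rpl34 gave 0.13 (SE 0.19) and Rpl21 fell by 1.33 (SE 0.24, adjusted p = 0.0300), a call lost without replicate 2 of Rab30 Ctrl or any 1 library of ff;ff. Neither group carried Cre or a deleted exon.

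The interaction, the DKO against Cpt2L-/- change minus the Rab30L-/- against ff;ff change, was fitted over 16 libraries. It called 0 genes higher and 2 lower, beside 2.20% and 1.86% of 14063 genes. Unadjusted p-values were under 0.05 for 0 higher and 13 lower genes (all genes 11.1% and 10.6%), DESeq2 called 0 and 3 (4.28% and 3.41%), and limma-voom 1 and 6 (4.74% and 4.28%). Rpl34 gave -9.74 (SE 0.38, edgeR adjusted p = 8.0e-12) and Rpl21 -5.95 (SE 1.05, adjusted p = 0.00800). With near copies the values were 0.17 (SE 0.23, adjusted p = 0.693) for Rpl34 and -3.17 (SE 0.33, adjusted p = 4.2e-05) for Rpl21. The median of the 77 was -0.22, against -0.01 over all genes and -0.19 for the 129 other short genes, whose part in the result was not tested.

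Between the livers of a group, most ribosomal protein genes lay on the same side of their group mean in some libraries. Deviations were taken from the mean log2 CPM of the group for the 73 members over 20 CPM. In replicate 3 of Cpt2L-/- 72 of the 73 were above their group mean and in replicates 1 and 2 4 each, with median deviations of 0.28, -0.19 and -0.25. In DKO, 68 and 71 were above it in replicates 3 and 4, and 5 and 4 in replicates 1 and 2. The other short protein-coding genes, 129 of them under 1000 bases and over 10 CPM, deviated to the same side in 20 of 24 libraries, and their median deviation was 0.42 in replicate 3 of Cpt2L-/-, 0.33 in replicate 2 of Rab30 Ctrl (members 0.39) and 0.30 in replicate 3 of Rab30L-/- (members 0.18). In those last 2 libraries Rps28, whose coding sequence has 207 bases, was at 83.6 and 93.8 CPM, against 5.51 to 22.6 in the other 22. These values share a library and its depth, and their part in the comparisons was not tested.

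**Figure D5:**
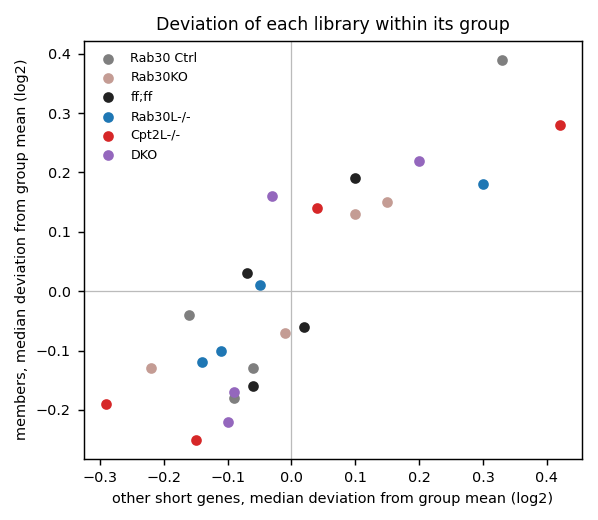
Median log2 deviation from the group mean in each library, for the ribosomal protein genes (y axis) and for 129 other short protein-coding genes (x axis), with 1 point for each of the 24 libraries, coloured by group. Replicate 3 of Cpt2L-/- (0.28 and 0.42) and replicate 2 of Rab30 Ctrl (0.39 and 0.33) lie at the upper right.

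Other genes of ribosome production and translation were read from lists. Over all genes, 11.9% were called higher and 11.9% lower in Cpt2L-/- against ff;ff, 7.87% and 8.24% in DKO against ff;ff, and 14.9% and 15.8% in DKO against Rab30L-/-, the shares beside which these counts stand. Of 60 ribosome biogenesis genes, 23 were called higher and 0 lower in Cpt2L-/- against ff;ff (median 0.45), 13 and 0 in DKO against ff;ff (0.36) and 25 and 0 in DKO against Rab30L-/- (0.42), with 0 called in the other 5 fits. Examples were Eif6, the factor that keeps new large subunits from joining early, which rose by 1.16 (SE 0.16) in Cpt2L-/- against ff;ff, and the nucleolar GTPase Gnl3, which rose by 1.05 (SE 0.15) in DKO against ff;ff. Of 25 translation factors and other TOP mRNAs, 9, 6 and 10 were called higher and 0 lower in the same 3 comparisons, with medians of 0.27, 0.26 and 0.29. Of 30 tested genes of translation control, 5 were higher and 1 lower in Cpt2L-/- against ff;ff, 4 and 0 in DKO against ff;ff and 9 and 2 in DKO against Rab30L-/-. In Cpt2L-/- against ff;ff, Mtor, the kinase of mTORC1, rose by 1.3 (SE 0.15) and Eif2ak3, the kinase of the unfolded protein response, by 1.41 (SE 0.16), and the lower gene, Ppp1r15b, a regulator of eIF2 alpha dephosphorylation, fell by 0.41 (SE 0.12). Of 77 tested mitochondrial ribosomal proteins, 4 were higher and 3 lower in Cpt2L-/- against ff;ff, 2 and 5 in DKO against ff;ff, and 3 and 18 in DKO against Rab30L-/-. In DKO against Cpt2L-/- 0 were higher and 1 lower, and in the interaction 1 and 1 (all genes 1.38% and 1.33%, and 2.20% and 1.86%). Of 7 tested cytosolic ribosomal proteins with symbols outside the rule, Rpl22l1, the paralog of Rpl22, was called and rose by 1.14 (SE 0.22, edgeR adjusted p = 0.00187) in Cpt2L-/- against ff;ff, where Rpl22 itself gave 0.23 (SE 0.15).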

How the data were processed

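RNA was sequenced from 24 livers, and the libraries were grouped by their labels, 4 in each of 6 groups. The authors deposited raw read counts per gene and FPKM values made from them. The submitters' processing notes name HISAT2, DESeq2 and GRCm38 (mm10). The counting tool, and how it treated reads that map to several places, is not given in the sources used here. Of 468588.0 deposited FPKM values above 0, 100.0% were within 1% of the count over gene length and library total times 1 factor per library. Tables of normalised counts and of the authors' own fold changes and p-values were not used, and 0 columns of per-sample values were left unassigned.

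Counts were filtered with filterByExpr, scaled by TMM and tested with the edgeR (4.0.16, R 4.3.3) quasi-likelihood test, and p-values were adjusted over all tested genes by Benjamini-Hochberg. CPM is scaled by TMM. DESeq2 (1.42.0), limma-voom (limma 3.58.1), other scalings and filters, 1 fit of all libraries, summing of named pseudogenes and leaving out each library were alternatives. Summing of near copies was added after the data were seen. Scripts ran in Python 3.11.15 (pandas 2.3.3, numpy 2.4.6, scipy 1.17.1, matplotlib 3.10.9) and were tested on simulated data. Among all 276 pairs of libraries, the lowest chi-square per degree of freedom was 13.4, so no library was present more than once. The limit given for a count of 0 covers counting error only.

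The genes and lists were chosen with earlier results of these data known. Named were the called members, the 3 highest and lowest by FPKM, the 3 with the largest spread, the 3 farthest from the median in each comparison, those with named pseudogenes holding at least 10% of reads, a set of members with known roles, and the leading called genes of each list. Rpl13a, Rpl24, the genes of the pyrimidine runs and the pairs shown by sequence were chosen after their values were seen. A called member is not reported here by name.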

Additional observations from a re-analysis of the deposited data

Results flagged for a closer look

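Within a group of 4, a library was singled out where its gap to the nearest other, over the range of the group, passed Dixon's 95% limit. Chance passes about 1 in 20 such groups, and 38 of 482 did here, 13 of them through replicate 3 of Rab30L-/- and 9 through replicate 2 of Rab30 Ctrl.

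The values given here are those of the genes chosen for naming, and the other genes past the limit are not listed. In replicate 2 of Rab30 Ctrl they were Rpl10a at 170.0 CPM, Rpl38 at 98.0, Rps28 at 83.6 and Rpl39l at 0.0493. In replicate 3 of Rab30L-/- they were Rpl26 at 73.8 CPM, Rpl38 at 95.4, Rps27 at 156 and Rps28 at 93.8. Other libraries of Rab30L-/- stood apart for Rpl4 (538 CPM, replicate 2) and Rplp1 (199 CPM, replicate 4). Rpl26 stood apart at 58.3 CPM in replicate 4 of Rab30 Ctrl and at 86.8 in replicate 2 of Rab30KO, and Rpl30 at 91.3 CPM in replicate 4 of ff;ff. In Rab30KO, Rpl39 reached 122 CPM in replicate 4 and Rpl39l 0.0758 in replicate 2. Both values of Rpl39l are 1 count in a group otherwise at 0, which passes the limit by construction and says nothing of the gene. Rps27a stood apart at 85.7 CPM in replicate 2 of ff;ff, Rps12 at 61.9 in replicate 4 of Cpt2L-/-, Rps27 at 154 in replicate 3 of DKO and Rpl23a at 123 in replicate 4 of DKO.

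The interaction term in edgeR was called for the reads assigned to Rpl34 (log2 fold change -9.74, adjusted p = 8.0e-12) and Rpl21 (-5.95, adjusted p = 0.00800). With near copies summed the values were 0.17 (edgeR adjusted p = 0.693) for Rpl34 and -3.17 (4.2e-05) for Rpl21. Alone, both genes were also called lower in ff;ff against Rab30 Ctrl, where neither group carried Cre or a deleted exon.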

How the results depend on the processing

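The count of called genes moved by over 1.5 times under these settings. In Rab30L-/- against ff;ff it was 1 in place of 2 with all 24 libraries in 1 fit, limma-voom, a filter of at least 10 counts in every library or of at least 1 count over all, or named pseudogenes or near copies summed. In Cpt2L-/- against ff;ff it was 11 with DESeq2 and 15 with limma-voom in place of 7. In DKO against ff;ff it was 6 with limma-voom in place of 2. In DKO against Cpt2L-/- it was 9 with DESeq2 or at least 1 count, 17 with limma-voom and 1 in the fit of all libraries, in place of 2. In DKO against Rab30L-/- it was 17 with DESeq2 or limma-voom and 5 in the fit of all libraries, in place of 10. In ff;ff against Rab30 Ctrl and in the interaction it was 1 in place of 2 with named pseudogenes or near copies summed, and 7 in the interaction with limma-voom. The summed level of Cpt2L-/- over ff;ff was 1.48 by library totals.

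Leaving out each library gave 1 to 3 called genes in Rab30L-/- against ff;ff (0 to 1 with near copies), 5 to 9 in Cpt2L-/- against ff;ff (4 to 7), 1 to 6 in DKO against ff;ff (2 to 7), 1 to 3 in DKO against Cpt2L-/- (1 to 3), 4 to 9 in DKO against Rab30L-/- (7 to 12), 2 to 3 in ff;ff against Rab30 Ctrl (0 to 1), 2 to 3 in the interaction (1) and 0 in Rab30KO against Rab30 Ctrl.

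Rpl34 turned direction. With named pseudogenes and with near copies summed it gave -0.09 and -0.09 in Rab30L-/- against ff;ff, -0.02 and -0.03 in Cpt2L-/- against ff;ff, 0.09 and 0.08 in DKO against Cpt2L-/-, 0.15 and 0.14 in DKO against Rab30L-/-, 0.14 and 0.13 in ff;ff against Rab30 Ctrl, and 0.17 and 0.17 in the interaction. The cause of these and of the other moves was not tested.

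No paired analysis was possible because the labels, which call ff;ff littermates of DKO and Rab30 Ctrl littermates of Rab30KO, do not say which animals were siblings. The replicate numbers used here only name the libraries in accession order.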
